A study of Mus musculus with 4 samples.

Results

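The translation initiation and elongation factor genes of mouse T-helper 2 (Th2) cells were described here across 4 RNA-seq libraries. They were taken by symbol: every protein-coding gene outside the Y chromosome whose symbol starts with Eif and a number from 1 to 6, or with Eef and 1 or 2. This rule found 66 genes of the 50600 in the tables, and of 21751 protein-coding genes of the nuclear genome. Of the 66 genes, 17 have an exon lying opposite the exon of another gene, on the reverse strand (25.8%, against 22.1% of all nuclear protein-coding genes), and 49 have none. Primary CD4 T cells of strain C57BL/6NJ were driven to the Th2 state in culture, per the name of the linked protocol, and the file headers give 16 hours. Age is given as unknown and sex as not collected, and no further treatment or genotype is stated. The 4 libraries, called replicates 1 to 4 after their biological replicate numbers, form 1 group, so comparisons are between genes within a library or between replicates. All 4 carry the same donor label, so the p-values speak of sample-to-sample spread alone, which may be technical.

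Translation of most mRNAs begins when eIF4E binds the cap, the scaffold eIF4G joins it, and the helicase eIF4A unwinds the leader for the small ribosomal subunit. That subunit arrives with eIF1, eIF1A, eIF3, eIF5 and the initiator tRNA held by eIF2 and GTP; eIF5B then joins the large subunit. eEF1A brings each aminoacyl-tRNA to the ribosome and eEF2 moves the ribosome along the mRNA. Resting T cells hold translation low and raise it on activation. Several of these genes, Eef1a1 and Eef2 among them, make mRNAs that begin with a run of pyrimidines (terminal oligopyrimidine, or TOP, mRNAs), through which the kinase mTOR controls their translation.

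The start of the gene is where a TOP run would lie, so 5 members of the TOP list are shown around it. The windows hold 15 bases before and 15 from the start base on, on the gene's own strand, from RefSeq's table on GRCm38.p6, with the longest run of C or T in capitals. They lie at chr9:78481710-78481739 (Eef1a1, minus strand), chr1:63176816-63176845 (Eef1b2, plus), chr10:81176616-81176645 (Eef2, plus), chr7:108934400-108934429 (Eif3f, plus) and chr15:102073758-102073787 (Eif4b, plus).
Eef1a1: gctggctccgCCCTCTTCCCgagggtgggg
Eef1b2: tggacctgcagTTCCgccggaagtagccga
Eef2: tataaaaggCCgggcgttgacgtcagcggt
Eif3f: tctgttctaggCTCTCTCTCTTTCTCggca
Eif4b: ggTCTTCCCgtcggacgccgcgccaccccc
The run is 15 bases long in Eif3f, 10 in Eef1a1, 7 in Eif4b, 4 in Eef1b2 and 2 in Eef2. A C followed by 4 further pyrimidines at the listed start base itself was found in 2 of the 50 members with an entry in that table, Eif2s3x and Eif3f (4%, against 2.49% of 27025 genes). Allowing it anywhere from 5 bases before to 10 after the start gave 12 of 50 (24%, against 18.5%), Eef1a1 among them. The table gives 1 listed start per gene, which need not be the start these cells use.

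The 250 bases before the start of the 2 most abundant elongation factor genes are shown with the motifs found on either strand in capitals. In Eef1a1 (chr9:78481725-78481974, minus strand) these are 2 GC boxes, GGGCGG, here as their reverse complement. In Eef2 (chr10:81176381-81176630, plus strand) they are 1 E-box, CACGTG, and 1 TATA box, TATAAA.
Eef1a1: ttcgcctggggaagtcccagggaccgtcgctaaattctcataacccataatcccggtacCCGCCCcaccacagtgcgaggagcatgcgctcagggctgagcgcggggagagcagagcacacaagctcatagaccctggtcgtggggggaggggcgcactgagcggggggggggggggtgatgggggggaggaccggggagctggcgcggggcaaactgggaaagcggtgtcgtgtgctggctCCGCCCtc
Eef2: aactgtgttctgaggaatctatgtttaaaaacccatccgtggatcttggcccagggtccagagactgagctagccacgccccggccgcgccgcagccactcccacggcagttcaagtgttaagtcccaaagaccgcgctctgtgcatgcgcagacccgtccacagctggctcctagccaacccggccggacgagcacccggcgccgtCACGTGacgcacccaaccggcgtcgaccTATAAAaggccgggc
Over the 50 members, a GC box stood in 35 promoters (70%, against 32.9% of all genes), an E-box in 9 (18%, against 6.05%), the ETS core CCGGAAG in 10 (20%, against 7.05%), CCAAT in 13 (26%, against 34.5%) and TATAAA in 4 (8%, against 12.97%). The 9 with an E-box were Eef2, Eef2k, Eif1b, Eif3f, Eif3k, Eif4a1, Eif4g1, Eif4h and Eif5a2. The 4 with a TATA box were Eef2, Eif2s1, Eif3b and Eif3f, so Eef2 and Eif3f held both. These are matches of letters, and no binding was measured.

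The tables hold 1688658, 1705096, 2222583 and 1881293 counts in replicates 1 to 4, and a count of 0 allows up to 3 counts, or a CPM (counts scaled to library size) of 1.35 to 1.78. Reads were counted with strand option 1, so every level below is on the counted strand. Among mRNAs encoded by the mitochondrial genome, the minus strand, which carries mt-Nd6 alone, held 87.2 to 92.0% of counts. Whether the strand option fits the way the libraries mark strand was not tested. Were the option the reverse of the libraries' sense, the levels below would not be those of the named genes' own RNA. Genes without an exon opposite held 8.17 ± 1.35% of all counts (SD, n = 4). All 11 T cell markers had counts in every library (summed 227 to 329 TPM). Cd247, which has an opposite exon, was at 167 ± 8.24 TPM (SD, n = 4), and the other 10 lay between 3.47 and 22.4 TPM. Of 8 Th2 markers, Il4, Gata3, Ccr4, Ccr8 and Ptgdr2 had counts in every library, while Il5, Il13 and Il1rl1 had none (summed 72.6 to 101 TPM, of which Ptgdr2, with an opposite exon, was at 57.3 ± 9.10). Of the markers of other cells, 4 of 5 for CD8 and cytotoxic cells, 4 of 5 for B cells, 4 of 5 for macrophages and dendritic cells, 3 of 3 for neutrophils and 2 of 3 for erythroid cells were at 0. Their summed levels were 1.73 to 6.44, 4.82 to 9.53, 133 to 163, 0 and 4.99 to 12.0 TPM, with the macrophage sum in Csf1r, which has an opposite exon. In these bulk samples, fewer cells of a type and less RNA per cell cannot be told apart.

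Translation factor genes were counted widely but held a small share of the reads. Of the 66, 59 had a count in all 4 libraries (89.4%, against 39.0% of nuclear protein-coding genes), and 3 had none in any: Eef1a2, the muscle and neuron form of eEF1A, Eif4e1b, the oocyte form of the cap-binding protein, and the eIF4E inhibitor gene Eif4ebp3. For Eif4ebp3, 501 of 744 exon bases are shared with Ankhd1 on the same strand, where a read cannot be given to 1 gene. The 66 genes held 10449, 10038, 10423 and 12234 counts, which is 0.619%, 0.589%, 0.469% and 0.650% of the libraries, or 0.582 ± 0.0792% (SD, n = 4). Their median level was 8.26 TPM (transcript abundance, from counts scaled by gene length and library), against 0.128 TPM over nuclear protein-coding genes, and 29 of the 66 reached a mean of 10 TPM (43.9%, against 8.47%).

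A large part of those reads lay in the 17 genes with an exon opposite. They held 57.3%, 57.2%, 65.3% and 51.1% of the factor counts in replicates 1 to 4 (95% Wilson intervals 56.3 to 58.2, 56.3 to 58.2, 64.3 to 66.2 and 50.2 to 52.0, for counting error only), a mean of 57.7 ± 5.80% (SD, n = 4). The share came to 48.5% when only overlaps of at least 100 bases were taken and to 46.4% as a share of TPM. Over all nuclear protein-coding genes the share in genes with an opposite exon was higher, 86.6 ± 1.99% (SD, n = 4). The mean of log2(TPM + 1) was 4.33, 4.26, 4.04 and 4.32 for factor genes with an opposite exon and 3.17, 3.09, 2.67 and 3.40 for those without. Within libraries the first class was thus higher by 1.16, 1.17, 1.38 and 0.92, or 1.15 ± 0.19 (SD, n = 4), with the same sign in 4 of 4 libraries and an exact two-sided sign-flip p of 0.125, the smallest that 4 libraries allow. Without replicate 3 the difference was 1.08. The same genes are compared in every library, so the shared sign and the p are a description only. The median of mean TPM was 23.1 in the 17 genes and 6.71 in the 49. For all nuclear protein-coding genes these medians were 1.49 and 0 TPM.

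**Figure D1:**
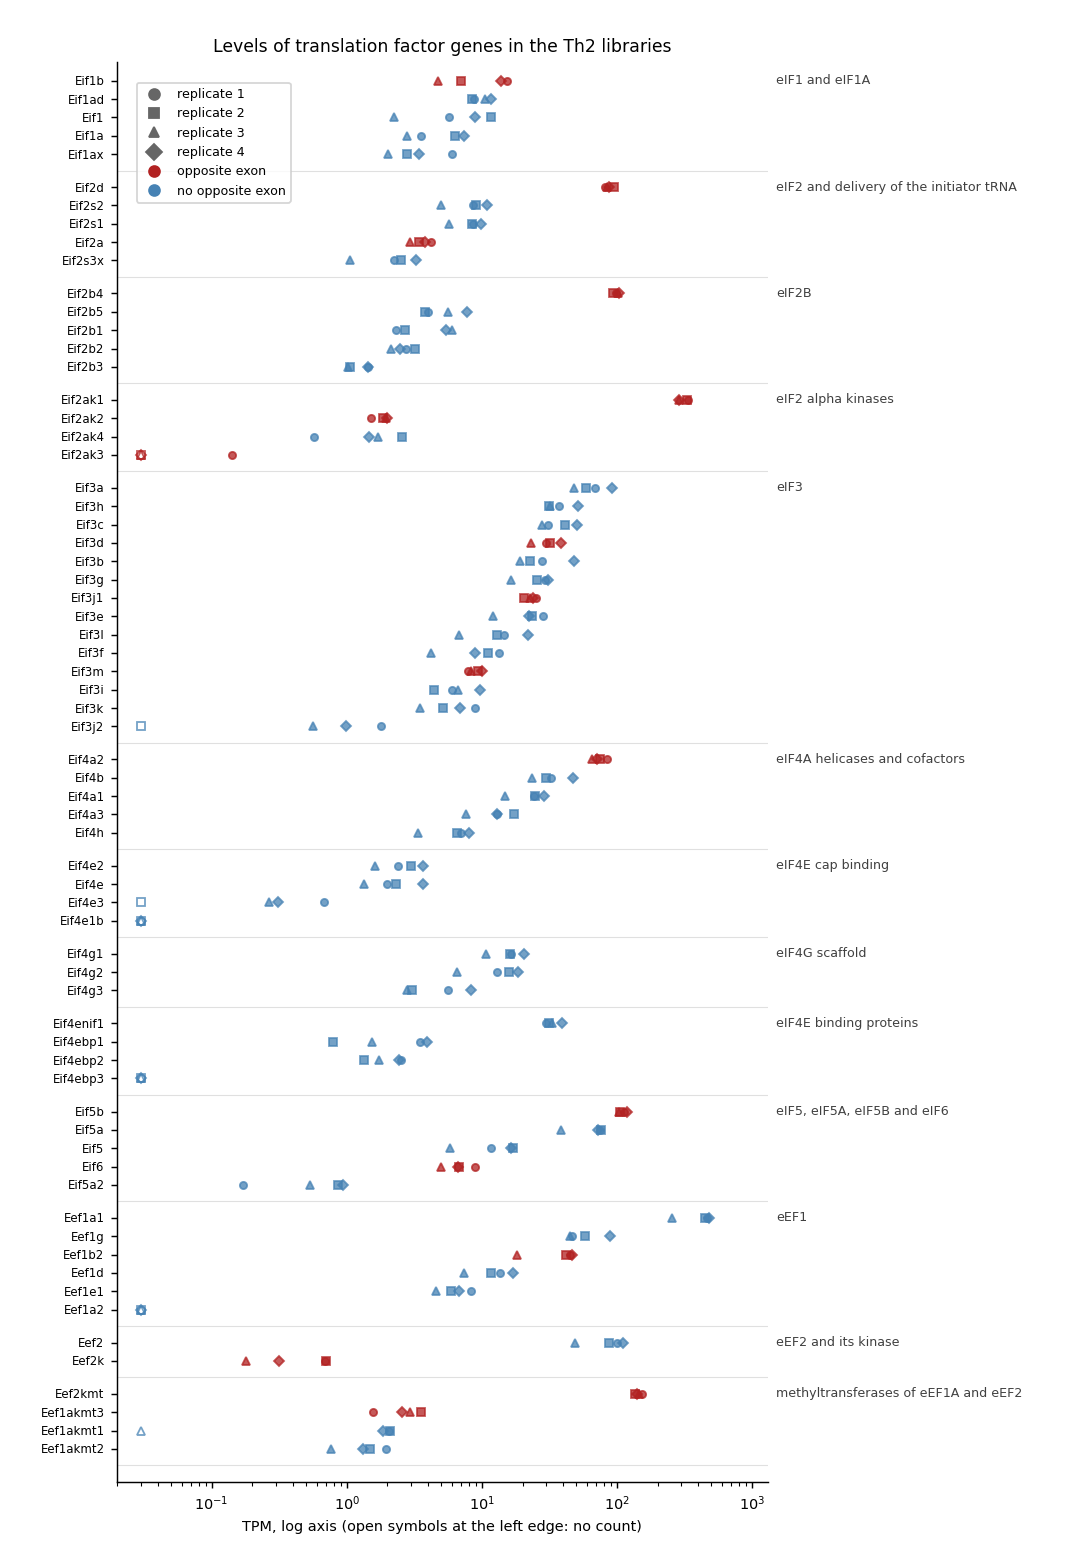
TPM of each translation factor gene on a log axis, 1 symbol per replicate, grouped by factor complex and ordered by mean within it; red genes have an exon opposite and blue genes have none, and open symbols at the left edge are libraries without a count. Eef1a1 and Eif2ak1 are the highest at means of 412 and 310 TPM, and the triangles of replicate 3 lie to the left in many of the blue genes.

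Start-codon selection rests on eIF1 and eIF1A, and their genes were low. Eif1, the gatekeeper of the start codon, had 14, 28, 7 and 24 counts (7.11 ± 4.04 TPM, SD, n = 4). Its paralog Eif1b had 20, 9, 8 and 20 counts (10.2 ± 5.13 TPM), and lies head to head with the noncoding gene D830035M03Rik. The 2 overlap between replicates, with neither gene above the other in every library. For eIF1A, the autosomal Eif1a had 12, 21, 12 and 27 counts (5.00 ± 2.16 TPM) and the X-linked Eif1ax had 37, 17, 16 and 23 (3.56 ± 1.73 TPM), again with overlapping ranges. Eif1ad, a related gene for a protein with an eIF1A-like domain, was the steadiest of the 5 at 25, 24, 39 and 37 counts (9.84 ± 1.56 TPM, SD, n = 4). Reads of such similar copies may be shared or lost in counting, so these levels are uncertain.

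The 3 subunit genes of eIF2, the GTPase that carries the initiator tRNA, were low and unequal. Eif2s2 (beta) had 68, 70, 50 and 94 counts, or 8.36 ± 2.47 TPM, and Eif2s1 (alpha, the subunit phosphorylated under stress) had 50, 48, 42 and 63, or 8.17 ± 1.79 TPM (SD, n = 4). These 2 do not differ beyond their spread, whereas Eif2s3x (gamma, X-linked), with 10, 11, 6 and 16 counts, was at 2.27 ± 0.920 TPM and below both in every library. Eif2d, whose product can deliver tRNA without GTP, stood far above them at 699, 803, 935 and 828 counts, or 87.0 ± 5.63 TPM (chromosome 1, 131153181 to 131187658, mm10). It ends tail to tail with Rassf5, a Ras-association gene of lymphocytes, and only 78 of its 7374 exon bases lie opposite an exon. Eif2a, for another alternative tRNA carrier, was at 30, 24, 27 and 30 counts (3.60 ± 0.538 TPM).

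eIF2B is the 5-subunit exchange factor that reloads eIF2 with GTP, and 1 of its subunit genes stood apart. Eif2b4 (delta; chromosome 5, 31187558 to 31193430) had 296, 282, 392 and 342 counts, or 98.8 ± 3.74 TPM, and shares 204 bases head to head with Snx17, an endosomal sorting gene. The other 4, none with an exon opposite, ran from Eif2b5 (epsilon, the catalytic subunit; 15, 14, 27 and 32 counts, 5.30 ± 1.84 TPM) and Eif2b1 (alpha; 4.10 ± 1.86 TPM) down to Eif2b3 (gamma; 1.24 ± 0.228 TPM, SD, n = 4). In every library Eif2b4 was above each of them on the counted strand, although the complex holds its subunits in equal number. The part of its opposite exon in this order was not tested.

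Among the 4 kinases that phosphorylate eIF2 alpha, levels ranged from the second highest of all 66 genes to nearly none. Eif2ak1, the heme-regulated kinase HRI known from red cell precursors (chromosome 5, 143817788 to 143904251), had 2223, 2168, 2421 and 2095 counts, or 310 ± 27.2 TPM (SD, n = 4). It held the most counts of any factor gene, and the 4 kinases together held 21.1 ± 2.64% of all factor counts. Its exons lie opposite 487 bases of Aimp2, a scaffold of the tRNA synthetase complex, and 172 of Ankrd61. Eif2ak2, the double-stranded RNA sensor PKR, had 9, 11, 15 and 13 counts (1.83 ± 0.221 TPM), and Eif2ak4, the amino acid sensor GCN2, had 5, 22, 19 and 14 (1.58 ± 0.817 TPM). Eif2ak3, the endoplasmic reticulum sensor PERK, had a single count, in replicate 1. Of the erythroid list, Hba-a1 and Hbb-bs had no count and Alas2, which has an opposite exon, had 14, 20, 43 and 33.

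eIF3, the largest initiation factor and the one that holds the small subunit, is encoded by 14 of the 66 genes, and 13 had counts in every library. Its genes without an opposite exon had a median of 21.6 TPM, from 0.837 to 67.0. The highest was Eif3a, the scaffold subunit (chromosome 19, 60761116 to 60790693), with 415, 351, 373 and 612 counts, or 67.0 ± 18.8 TPM (SD, n = 4). Next came Eif3h at 54, 45, 60 and 83 counts (37.9 ± 9.48 TPM) and Eif3c at 127, 166, 147 and 227 (37.6 ± 10.2 TPM), which do not differ beyond their spread. The lower subunits were Eif3f, a TOP gene with the long pyrimidine run shown above (9.38 ± 3.92 TPM), Eif3i (6.71 ± 2.19 TPM) and Eif3k (6.11 ± 2.33 TPM). Of the 3 with an exon opposite, Eif3d, which can itself bind the cap, had 67, 70, 66 and 94 counts (30.8 ± 6.27 TPM), within the range of the others. Eif3j1, the loosely bound subunit, had 171, 137, 199 and 179 (23.1 ± 2.02 TPM), while its intronless copy Eif3j2 had 5, 0, 2 and 3. Reads that match both copies are uncertain.

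In the cap-binding group eIF4F, the helicase gene Eif4a2 had the highest level on the counted strand. Eif4a2 (chromosome 16, 23107444 to 23114136), tail to tail with the replication factor gene Rfc4, had 521, 462, 522 and 483 counts, or 73.7 ± 7.71 TPM. Eif4a1, usually the main form in dividing cells and without an opposite exon, had 123, 123, 96 and 159, or 23.1 ± 5.85 TPM (SD, n = 4). On the counted strand it was below Eif4a2 in every library. The part that the opposite exon of Eif4a2 has in this order was not tested. Eif4a3, the exon junction complex member, had 32, 42, 24 and 35 counts (12.6 ± 3.93 TPM). The helicase cofactor genes were Eif4b at 145, 132, 135 and 235 counts (33.2 ± 10.2 TPM) and Eif4h at 45, 42, 28 and 57 (6.22 ± 1.99 TPM). The scaffold genes followed, with Eif4g1 at 138, 135, 115 and 190 counts (15.9 ± 4.04 TPM) and Eif4g2, the cap-independent form DAP5, at 154, 186, 99 and 243 (13.5 ± 5.20 TPM). Eif4g3 was lower at 72, 39, 46 and 117 counts (4.92 ± 2.55 TPM). All 3 were lower per length than Eif4a2 in every library.

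The genes for cap binding were among the lowest of the group on the counted strand, and none has an opposite exon. Eif4e, the cap-binding subunit and the limiting one in textbook accounts, had 14, 16, 12 and 28 counts (2.32 ± 0.966 TPM), and its repressive relative Eif4e2 had 21, 26, 18 and 35 (2.66 ± 0.868 TPM, SD, n = 4). Eif4e3 had 4 counts in all and shares 373 exon bases with Gm20696 on the same strand. The mTOR-controlled inhibitors were as low, with Eif4ebp1 at 9, 2, 5 and 11 counts (2.43 ± 1.51 TPM) and Eif4ebp2 at 17, 9, 15 and 18 (2.01 ± 0.560 TPM). The eIF4E transporter gene Eif4enif1, by contrast, had 220, 229, 315 and 321 counts (33.3 ± 4.25 TPM) and was above these 4 genes in every library. It has no exon opposite but lies whole inside Drg1 on the other strand, whose own counts were 10, 14, 7 and 14.

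The late initiation factor genes spanned a wide range of levels. Eif5b, which joins the ribosomal subunits (chromosome 1, 37998010 to 38055579), had 1282, 1176, 1510 and 1471 counts, or 110 ± 6.67 TPM, and shares 1643 exon bases tail to tail with Rev1, a DNA repair polymerase gene. Eif5a, whose protein carries hypusine and relieves stalled ribosomes (chromosome 11, 69916714 to 69921958), had 207, 208, 136 and 222 counts, or 65.4 ± 18.1 TPM (SD, n = 4), while its paralog Eif5a2 had 1, 5, 4 and 6. Eif5, the GTPase activator of eIF2, had 55, 79, 35 and 86 counts (12.7 ± 5.21 TPM). Eif6, which keeps the ribosomal subunits apart, was lower still at 28, 21, 20 and 23 (6.80 ± 1.61 TPM). It has an opposite exon, head to head over 138 bases with Gm16098, which had no count in any library.

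Elongation factor genes gave the highest level of all. Eef1a1 (chromosome 9, 78478449 to 78489151, minus strand), which has no gene opposite, had 1349, 1291, 947 and 1533 counts, or 464, 449, 254 and 479 TPM, a mean of 412 ± 106 (SD, n = 4). Replicate 3 lay below the other three, and its value also lay below the range of Eif2ak1, so the order of these 2 genes differs between libraries. The exchange factor subunits that recharge eEF1A were lower: Eef1g had 141, 175, 173 and 296 counts (59.5 ± 20.4 TPM), Eef1b2 132, 122, 69 and 151 (37.8 ± 13.2 TPM) and Eef1d 93, 79, 65 and 129 (12.4 ± 4.03 TPM). Their summed level stayed below that of Eef1a1 in each library. Eef1e1, the multisynthetase complex member AIMP3, had 10, 7, 7 and 9 counts (6.38 ± 1.58 TPM). Eef2, the translocase (chromosome 10, 81176631 to 81182498), had 390, 335, 242 and 469 counts, or 86.7 ± 26.9 TPM, and Eef2k, the kinase that stops it, had 6, 6, 2 and 3 (0.473 ± 0.266 TPM).

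The genes of enzymes that methylate elongation factors held 1 of the highest members. Eef2kmt, the eEF2 lysine methyltransferase (chromosome 16, 5244152 to 5255983), had 471, 415, 573 and 480 counts, or 144 ± 6.85 TPM (SD, n = 4). Eef2kmt ends tail to tail with Alg1, a gene of N-glycan synthesis, over 472 bases. On the counted strand it was above the gene of its substrate, Eef2, which has no gene opposite, in every library. The part of the opposite exon in this order was not tested. The eEF1A methyltransferase genes Eef1akmt1, Eef1akmt2 and Eef1akmt3 were at 1.50 ± 1.00, 1.38 ± 0.488 and 2.66 ± 0.815 TPM, and none had more than 12 counts in a library.

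How the opposite gene lies was looked at after the levels had been seen, and is given as a description. The 6 members that overlap the other gene tail to tail were Eif2ak1, Eef2kmt, Eif5b, Eif2d, Eif4a2 and Eif3j1, from 310 down to 23.1 TPM with a median of 98.3. The 7 that overlap head to head had a median of 6.80 TPM, from Eif2ak2 at 1.83 to Eif2b4 at 98.8, so the ranges of these arrangements overlap. Eif3m lies inside Ccdc73 and was at 8.88 TPM, and the 3 that enclose the exons of the other gene, Eif3d, Eef2k and Eif2ak3, were at 30.8, 0.473 and 0.0355. Over all nuclear protein-coding genes the medians were 4.69 TPM tail to tail, 1.12 head to head, 1.10 inside the other gene and 0.370 around it, which is the same order for the first 2 arrangements. Overlap length did not order the 6 tail-to-tail genes, since Eif3j1, the lowest, shares 1107 bases and Eif2d shares 78.

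**Figure D2:**
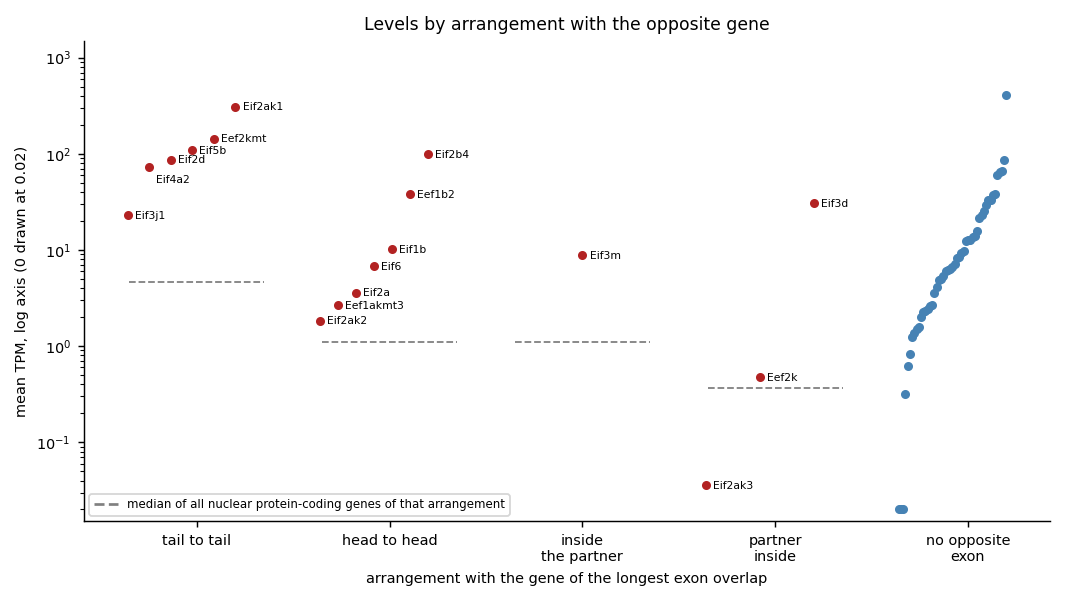
Mean TPM on a log axis of the 66 genes by how each lies to the gene with which it shares most exon bases, with genes of mean 0 drawn at 0.02; dashed lines are medians over all nuclear protein-coding genes of the arrangement, and none is drawn for genes without an opposite exon, whose median is 0. The tail-to-tail genes sit between 23.1 and 310 TPM, and the head-to-head genes between 1.83 and 98.8.

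The genes on the other strand ranged widely in level. The highest, Gm17638, a noncoding gene inside Eif3d, had 13640, 13789, 17102 and 13213 counts, or 2613 ± 168 TPM (SD, n = 4), which is 84.7 times the mean of Eif3d and higher in 4 of 4 libraries. It spans 77961674 to 77967126 on chromosome 15 and shares 625 exon bases with Eif3d. Gm43292, within Eif2ak3, had 146, 130, 195 and 167 counts, where Eif2ak3 had 1 in all, and Gm15774, within Eef2k, had 77, 86, 148 and 98 where Eef2k had 2 to 6. The reverse held for 5 of the 6 tail-to-tail pairs. Aimp2 was at 53.7 ± 3.89 TPM against 310 for Eif2ak1, Rassf5 at 17.7 ± 2.41 against 87.0 for Eif2d, Rev1 at 14.3 ± 1.97 against 110 for Eif5b and Rfc4 at 6.09 ± 2.12 against 73.7 for Eif4a2. Each of these 4 members was above the gene of its longest overlap in 4 of 4 libraries, as was Eef2kmt above Alg1 (89.0 ± 10.7 TPM). Eif3j1 and Spg11 (25.3 ± 2.59 TPM) were each higher in 2 libraries, and so were Eif2ak1 and its shorter overlap Ankrd61, which had 803, 847, 1177 and 979 counts (319 ± 18.4 TPM). Among head-to-head pairs, Eif2b4 was above Snx17 (40.0 ± 8.34 TPM) and Eef1b2 above Ndufs1 (1.19 ± 0.213 TPM) in every library, and Eif2ak2 was below Gm26637 (14.97 ± 1.94 TPM). The overlap of Eef1b2 with Ndufs1, a respiratory chain gene, is 9 bases long. All these orders are on the counted strand and would not stand as given if strand option 1 were the reverse of the libraries' sense, which was not tested.

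**Figure D3:**
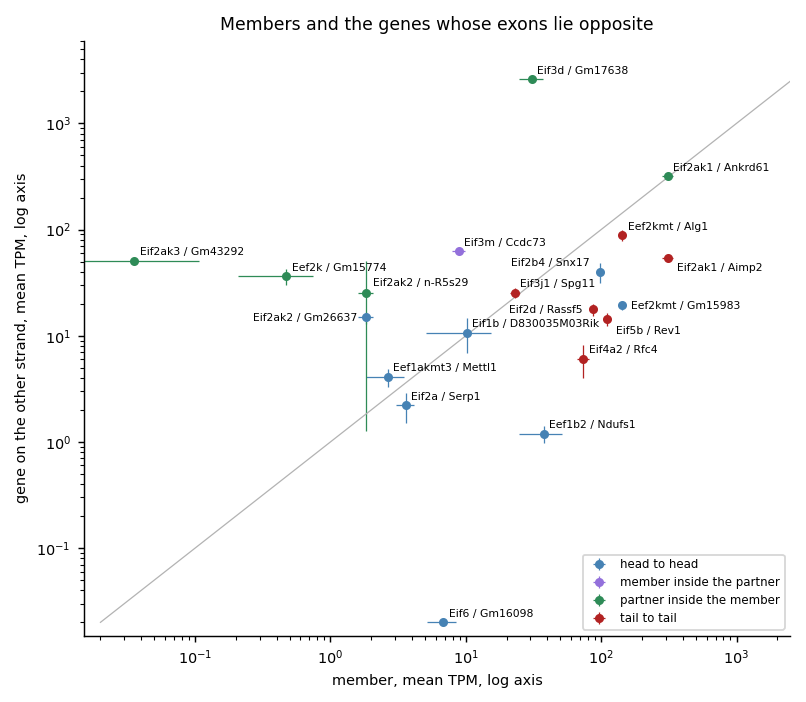
Mean TPM of each member with an exon opposite (x axis) against the gene on the other strand (y axis), both log axes, with bars of 1 SD over the 4 libraries (lower bars end within the axis) and colours for the arrangement; the line marks equal levels, and Gm16098, without a count, is drawn at 0.02. Gm17638 lies at 2613 TPM above Eif3d at 30.8, while 5 of the 6 tail-to-tail members lie below the line.

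Among genes without an opposite exon, those of the TOP list were higher on average. This list, from textbook knowledge, was chosen with earlier results of these data known, so the difference and its p are a description only. It holds 9 members, of which Eef1a1, Eef1d, Eef1g, Eef2, Eif3e, Eif3f, Eif3h and Eif4b have no exon opposite. Their mean of log2(TPM + 1) was 5.50, 5.38, 4.74 and 5.69 in replicates 1 to 4, against 2.71, 2.65, 2.26 and 2.96 for the 41 others without an opposite exon. The difference was 2.78, 2.73, 2.48 and 2.74, a mean of 2.68 ± 0.14 (SD, n = 4), with an exact two-sided sign-flip p of 0.125, again the smallest possible, and 2.75 without replicate 3. By gene, the 8 ran from Eef1a1 at 412 TPM to Eif3f at 9.38 TPM. The ranges overlap: Eif3a, Eif5a, Eif3c and Eif4enif1, which are outside the list, had higher means than Eif4b at 33.2 TPM, and the TOP gene Eef1d was at 12.4 TPM. In the windows shown, Eif3f, at 9.38 TPM, had the longest pyrimidine run and Eef2, at 86.7 TPM, the shortest. The listed start need not be the one these cells use, and a link between run and level was not tested.

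No factor gene varied between replicates beyond the adjusted threshold. Of the 66 genes, 42 passed the count filter (12 with and 30 without an opposite exon). With edgeR's quasi-likelihood dispersions and Benjamini-Hochberg adjustment, 0 of these 42 were called, where 22 of 4918 genes were (0.447%). DESeq2 marked 0 of the 42 as dispersion outliers (0.447% of all genes), and limma called 0 (0% of all genes). At an unadjusted p under 0.05, edgeR gave 10 of the 42, against 5.71% of all genes tested, and limma gave 5, against 4.23%. The smallest adjusted p by edgeR was 0.151, for Eef1a1. The 10 were Eef1a1, Eif4g2, Eef2, Eif4g3, Eef1b2, Eif3b, Eif5, Eif3a, Eef1g and Eif5a, of which Eef1b2 alone has an exon opposite. By class these were 9 of 30 tested members without an opposite exon, against 9.51% of such nuclear protein-coding genes. With an opposite exon it was 1 of 12, against 3.36%. Without replicate 3, edgeR gave 4 of 46 tested members at an unadjusted p under 0.05, against 5.2% of 5402 genes.

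The spread between replicates was wider in genes without an opposite exon. For members with a mean of at least 100 counts, the coefficient of variation (CV) of TPM over the libraries had a median of 27.9% in 12 genes without an opposite exon, from Eif4enif1 at 12.8% to Eif3b at 43.6%. It was 7.60% in 8 genes with one, from Eif2b4 at 3.78% to Eef1b2 at 34.9%. Counting error alone would give medians of 7.43% and 4.51%. The same pattern held over nuclear protein-coding genes at that depth, with medians of 26.3% in 218 genes without and 9.78% in 940 with an opposite exon. Without replicate 3, a choice made after seeing the data, the medians for the factor genes were 16.7% and 6.72%, so the first class was narrower without this library and still the wider of the 2. Eef1b2, with its 9-base overlap, lay among the genes without an opposite exon, and Eif4enif1, inside Drg1, lay nearest to those with one. The other members with a gene but no exon opposite had means under 100 counts and wider spreads. Eif4g3 had a CV of 51.9% and Eif2s2 of 29.5%. The part of the overlap in the spread was not tested.

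**Figure D4:**
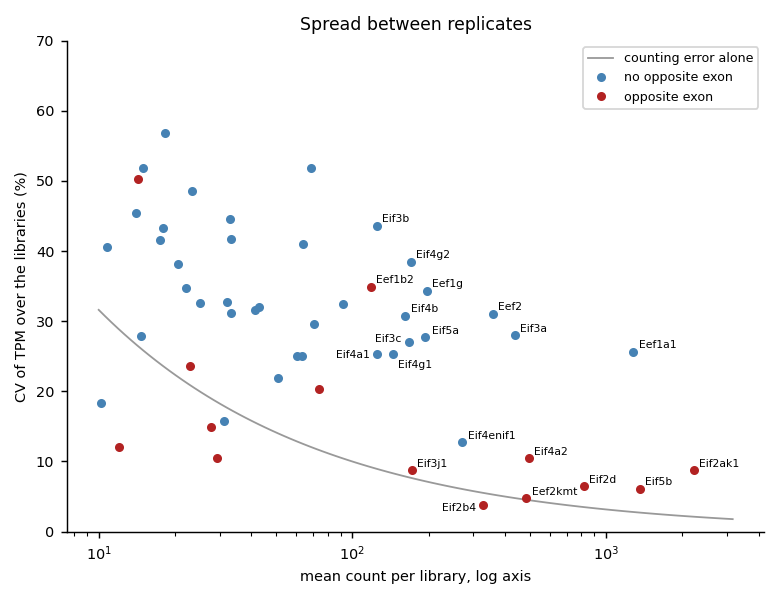
CV of TPM over the 4 libraries, in percent, against the mean count per library on a log axis, for members with a mean of at least 10 counts; the line is the CV that counting error alone would give. Above 100 counts, the red genes with an exon opposite lie between 3.78% and 10.5% except Eef1b2 at 34.9%, and the blue genes lie between 12.8% and 43.6%.

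The spread had a common form. Replicate 3 was the lowest library for 25 of the 30 tested members without an opposite exon, and replicate 4 the highest for 23. Eef2 showed it at 101, 87.5, 48.7 and 110 TPM, and Eif4g2 at 12.98, 15.9, 6.52 and 18.6. Scaled over nuclear protein-coding genes alone, replicate 3 was still lowest in 24 of 30 and replicate 4 highest in 22. The background was lower but went the same way: replicate 3 was lowest in 60.5% of tested nuclear protein-coding genes without an opposite exon, and in 51.0% on the second scale, while replicate 4 was highest in 62.5% and 55.2%. Of the 12 members with an opposite exon, replicate 3 was lowest in 7 on the first scale and 4 on the second, against 44.2% and 27.8% of such genes. The factor genes without an opposite exon together held 0.264%, 0.252%, 0.163% and 0.318% of the library counts, and all genes without one held 8.31%, 7.75%, 6.70% and 9.93%. The ribosomal RNA entry CT010467.1 took 1.29%, 5.05%, 9.40% and 1.62% of counts, so it was highest in replicate 3. Its part in the spread, and that of the share of counts in genes without an opposite exon, was not tested.

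**Figure D5:**
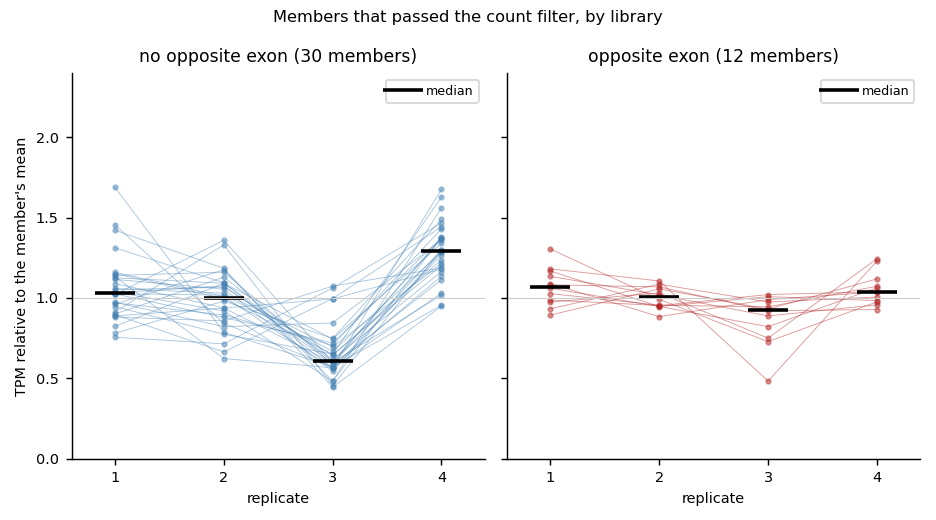
TPM of each tested member divided by its own mean over the 4 libraries, by replicate, for 30 members without (left) and 12 with (right) an exon opposite; thin lines join the values of 1 gene only to make it traceable, since replicates have no order, and black bars are medians. On the left the median is lowest in replicate 3 and highest in replicate 4; on the right Eef1b2 falls farthest in replicate 3.

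Other genes of the translation machinery gave a reference, from a list of 41 that the rule does not take. All 41 were found, 39 had counts in every library, and their median was 3.52 TPM, from 0.410 to 201. Ddit3, the stress transcription factor CHOP downstream of eIF2 alpha phosphorylation, was highest at 443, 440, 431 and 416 counts (201 ± 26.5 TPM, SD, n = 4) and has 81 opposite bases. Cyfip1, an eIF4E-binding partner of FMRP, was at 66.6 ± 4.80 TPM and also has an exon opposite, and Tpt1, a TOP gene without one, was at 56.5 ± 13.1 TPM. Also on the list, Atf4, with no gene opposite, was at 20.8 ± 6.36 TPM. Ppp1r15b and Ppp1r15a, which have an opposite exon, were at 2.41 ± 0.387 and 1.84 ± 1.24 TPM. These levels are on the counted strand, and the part of the opposite exons in them was not tested. Of the 41, 26 were tested and 0 were called by edgeR, against 0.447% of all genes tested. At an unadjusted p under 0.05 there were 3 of the 26, against 5.71%. By class these were 3 of 15 without an opposite exon, against 9.51% of such nuclear protein-coding genes. With an opposite exon it was 0 of 11, against 3.36%.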

How the data were processed

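Each library has a deposited table of whole-number gene counts. Per the file headers, the authors ran featureCounts 1.4.6-p4 on exons of GENCODE release M13 (mm10), with strand option 1 and only read pairs aligned at both ends. The aligner was not given in the sources used here. Labels title the assay total RNA-seq, while the linked protocol's name speaks of poly(A) RNA. Library totals ran from 1688658 to 2222583 counts. No header option counts multi-mapping or multi-gene reads.

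Symbols came from GENCODE release M21 by gene identifier (99.6% matched). TPM was computed from the counts and deposited lengths. Exons were overlapped between strands with bedtools 2.31.1, from 1 shared base. Promoters came from RefSeq (GRCm38.p6; 50 of 66 members matched).

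Differences of mean log2(TPM + 1) were tested by exact sign flips over 16 patterns. Replicate variation was tested per gene in edgeR 4.0.16 (TMM, filterByExpr, intercept only, robust), comparing the quasi-dispersion with the trended prior in the upper tail, adjusted over all tested genes at 0.05 and checked on simulated data. DESeq2 1.42.0 and limma 3.58.1, in R 4.3.3, were alternatives, as were other pseudocounts, scalings, filters, overlap rules and leaving out each replicate; Python 3.11.15, pandas 2.3.3 and scipy 1.17.1 were used. Members, lists and tests were chosen with earlier results of these data known. Named genes were the 2 highest of each complex with and without an opposite exon, those without a count and paralog pairs. Opposite genes of the longest overlap were named as well. Further members, Atf4, Ppp1r15a, Ppp1r15b and CT010467.1 were chosen after their values were seen. No pair of libraries agreed within sampling noise (chi-square per degree of freedom 3.52 to 18.5).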

Additional observations from a re-analysis of the deposited data

Results flagged for a closer look

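A library far from the others was seen for 3 genes among 46 values tested. Chance gives about 1 in 20, so a number near this could arise by chance alone. For all 3 genes it was replicate 3 that was low. Eef1a1 was at 254 TPM there, against 449 to 479 in the other libraries. Eef1b2 was at 18.2 TPM, against 41.8 to 46.5, and Eif5a at 38.3 TPM, against 72.8 to 76.0. CT010467.1 was at its highest share of counts in the same library, at 9.40%, and its part in these values was not tested.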

How the results depend on the processing

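The share of factor counts in genes with an opposite exon, 57.7%, moved to 48.5% when an overlap of at least 100 bases was asked for and to 46.4% as a share of TPM. It was 61.5% over whole gene bodies and 55.2 to 59.9% when each replicate was left out in turn. The members' share of all counts, 0.582%, was 1.12% of protein-coding nuclear counts and 0.559 to 0.619% with a replicate left out. The difference by opposite exon kept its sign in all 10 alternatives (1.05 to 1.33, and 1.08 to 1.23 with a replicate left out), as did the TOP difference in all 7 (2.28 to 3.23, and 2.65 to 2.75). With 3 libraries the smallest exact p is 0.25, so these p-values say nothing of stability. All 11 alternatives of the variation test called 0 members. The members at an unadjusted p under 0.05 numbered 4 without replicate 3, 5 with limma and 7 to 11 in the other 8 settings. The median CV of members at 100 or more counts without an opposite exon, 27.9%, was 16.7% without replicate 3 and up to 34.0% without another. No pairing of samples between groups was possible because the libraries form 1 group. The sign-flip tests compared gene classes within each library. Members under 10 counts cannot be ranked at this depth.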
